A study of Mus musculus with 12 samples.

Results

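The genes described here are 10 components of calcium handling by the sarcoplasmic reticulum of skeletal muscle: the pumps Atp2a1 and Atp2a2 and their inhibitor Sln, the store proteins Casq1 and Casq2, the cytosolic buffer Pvalb, the release channel Ryr1, the voltage sensor Cacna1s, and the junctophilins Jph1 and Jph2. They were chosen by name, with earlier results of these data known, so the shares of calls given below are descriptive. Probes were taken by the gene symbol in the platform annotation, which gave 20 probes for 9 of the 10 genes among the 45281 probes of the array. No probe carried the symbol Cacna1s, so this gene was not analysed here. Of the 20 probes, 18 were tested because every array of at least 1 genotype (6 arrays) detected them, among 15708 such probes in all.

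The 2 groups were transgenic (TG) mice that overexpress the nuclear receptor Nur77 (gene Nr4a1) in skeletal muscle, and wild-type (WT) mice, both after an overnight fast. Each genotype had 6 mice, whose RNA was combined 2 mice at a time into pools TG1 to TG3 and WT1 to WT3. Each pool was hybridised to a 1-colour Illumina mouse array on each of 2 chips, so the pool was the replicate (n = 3 per genotype) and both of its arrays were averaged. The sources used here do not give the promoter of the transgene or the strain, sex and age of the mice, and the muscle is abbreviated as Gastr in the sample titles. Signals are linear intensities, and differences are on the log2 scale after background correction and quantile normalisation. The single probe named Nr4a1 was detected on 0 of 12 arrays, with signals of -5.65, -4 and -0.3 in TG1, TG2 and TG3 and of -5.5, -0.8 and -2 in WT1, WT2 and WT3, so these arrays do not show the overexpression and the genotypes are as labelled. Between 17607 and 19118 probes were detected per array. The 2 arrays of TG3 and the chip 2 array of WT1 stood apart from the rest in a principal component analysis, and member values that change their call without these pools are given both ways.

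In a muscle fibre, depolarisation of the T-tubule moves the voltage sensor (Cacna1s with its accessory subunits), which opens the ryanodine receptor Ryr1 and lets calcium out of the sarcoplasmic reticulum. Junctophilins hold the T-tubule and the reticulum together at this site. The SERCA pumps return calcium to the store, where calsequestrin binds it, while parvalbumin buffers calcium in the cytosol of fast fibres and sarcolipin slows the pump. Atp2a1 is the pump of fast fibres and Atp2a2 that of slow fibres and heart. Casq1 is the calsequestrin of skeletal muscle, and Casq2 that of heart, also found in slow fibres.

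The release channel Ryr1 and the junctophilins Jph1 and Jph2 fell in TG muscle, each by its brightest probe, to 0.656, 0.619 and 0.789 times the WT level, with Jph2 called at 1 of its 3 probes. Casq2 and Pvalb rose, to 1.52 and 1.18 times the WT level. The pumps Atp2a1 and Atp2a2, Sln and Casq1 did not pass the threshold, an adjusted p of 0.05 by limma with Benjamini-Hochberg adjustment over all tested probes. Of the called genes, Pvalb passed in only 7 of 19 alternative settings, Jph2 at its called probe in 11 and Casq2 in 16. By probe, 2 of 18 were higher in TG, 6 lower and 10 did not pass. Of all tested probes 25.8% were called, 11.3% higher and 14.6% lower. With 1 probe per gene, 2 of 9 members were higher, 3 lower and 4 did not pass, where 28.0% of 9131 genes were called, 12.1% higher and 15.9% lower. The median log2 difference was -0.18 over the 18 probes, against -0.021 over all tested probes. With 1 probe per gene it was -0.050 over the 9 members, against -0.016 over all tested genes. Pools of the genotypes were fully separated at 12 of the 18 probes on the normalised log2 scale (TG below WT at 8, above it at 4), against 45.2% of all tested probes. On deposited signals they were also separated at 12, against 47.4% of all. All 6 TG arrays lay on 1 side of all 6 WT arrays at 8 of the 18, against 17.6% of all tested probes. In bulk RNA, fewer fibres of a type and less RNA per fibre cannot be told apart, and a signal of 1 probe is not compared here with that of another.

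**Figure D1:**
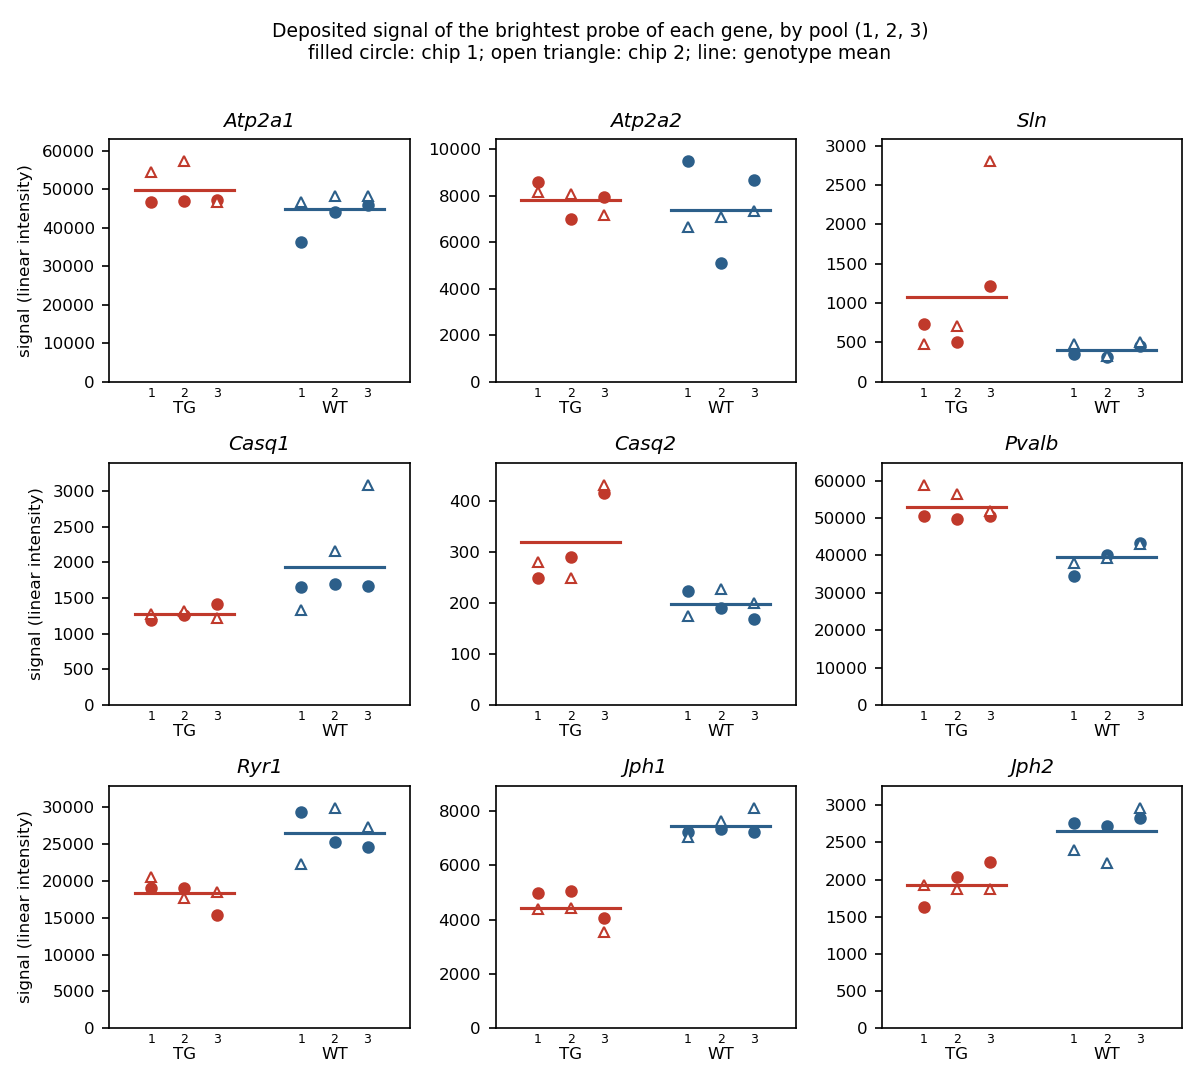
Deposited signal (linear intensity, from 0) of the brightest probe of each of the 9 genes, by genotype and pool; circles are chip 1, triangles chip 2 and lines genotype means. By pool means, TG lies below WT without overlap for Casq1, Ryr1, Jph1 and Jph2 and above it for Sln, Casq2 and Pvalb, and pool TG3 stands highest for Sln and Casq2.

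Of the promoter windows of RefSeq (GRCm38.p6), 9 of 300 bases each matched 7 of the 10 members (Atp2a1, Casq1, Casq2, Pvalb, Ryr1, Cacna1s and Jph2). They were searched on both strands for the NBRE, AAAGGTCA, the element that Nur77 binds as a monomer, and for the E-box, CANNTG, bound by myogenic factors. The NBRE was found in 1 of the 7 genes, Jph2, whose 2 windows overlap and hold the same match, read on the opposite strand. Of all 32851 promoter windows, 1.51% hold an NBRE and 72.3% an E-box. An E-box was found in 6 of the 7 genes, all but Ryr1. The windows of Jph2 and Ryr1, which fell, and of Casq2, which rose, are shown, with NBRE and E-box letters in capitals. The Jph2 window lies at chr2:163397944-163398243 (minus strand), with the NBRE at its bases 195 to 202. That of Ryr1 lies at chr7:29125102-29125401 (minus strand) and that of Casq2 at chr3:102086165-102086464 (plus strand). A match describes the letters only, and binding was not measured.
Jph2: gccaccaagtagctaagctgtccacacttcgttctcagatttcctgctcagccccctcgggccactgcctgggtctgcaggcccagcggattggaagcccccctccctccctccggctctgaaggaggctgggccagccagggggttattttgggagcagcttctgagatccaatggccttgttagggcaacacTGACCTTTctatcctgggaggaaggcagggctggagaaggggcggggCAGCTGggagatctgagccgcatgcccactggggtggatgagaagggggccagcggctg
Ryr1: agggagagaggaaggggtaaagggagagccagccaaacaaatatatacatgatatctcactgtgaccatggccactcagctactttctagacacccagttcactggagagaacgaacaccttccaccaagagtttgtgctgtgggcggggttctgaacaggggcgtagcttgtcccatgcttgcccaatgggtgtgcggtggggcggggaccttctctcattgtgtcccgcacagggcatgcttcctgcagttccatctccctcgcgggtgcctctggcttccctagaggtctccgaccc
Casq2: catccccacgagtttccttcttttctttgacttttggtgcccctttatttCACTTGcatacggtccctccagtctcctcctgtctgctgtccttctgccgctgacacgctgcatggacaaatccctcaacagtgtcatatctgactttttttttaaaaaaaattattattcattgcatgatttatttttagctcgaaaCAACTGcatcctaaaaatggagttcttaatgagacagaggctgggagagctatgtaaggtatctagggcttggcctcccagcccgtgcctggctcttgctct

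Ryr1, the calcium release channel, had 5 tested probes. The brightest (ILMN_2730425) had signals of 19820, 18390 and 16980 in pools TG1, TG2 and TG3, against 25820, 27630 and 25980 in WT1, WT2 and WT3. Every TG pool was below every WT pool, and TG3 was the lowest. The log2 difference was -0.61 ± 0.08 (SE, limma adjusted p = 0.0013, with 3 pools of each genotype). A further pair of bright probes gave -0.70 ± 0.09 (ILMN_2733073, adjusted p = 0.00182) and -0.62 ± 0.13 (ILMN_2842357, adjusted p = 0.0106), and for these 3 probes the 6 TG arrays did not overlap the 6 WT arrays. Mean signals of ILMN_2733073 were 15750 ± 1952 in TG and 24610 ± 541.5 in WT, and of ILMN_2842357 7996 ± 1332 in TG and 12400 ± 750.4 in WT (SD). The remaining 2 probes were dim and did not pass. ILMN_1220181 had mean signals of 372 ± 25.2 in TG and 506 ± 62.4 in WT (log2 difference -0.26 ± 0.11, adjusted p = 0.118), with pools that did not overlap. ILMN_1258021, annotated to a cDNA clone, had 92.6 ± 9.15 in TG and 104.9 ± 33.6 in WT (-0.055 ± 0.11, adjusted p = 0.741), with WT1 at 141.6, above every TG pool, and WT2 at 75.6, below every TG pool. The bright probes gave similar differences and the dim ones smaller ones. ILMN_2842357 missed the threshold on chip 1 (-0.44, adjusted p = 0.0584, in a range of 0.00159 to 0.06), and neither it (-0.63) nor ILMN_2730425 (-0.50, adjusted p = 0.0553) passed in the authors' deposited table, where ILMN_2733073 did.

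Jph1, the main junctophilin of skeletal muscle, was lower in TG at both of its probes. At ILMN_2585867, annotated to a cDNA clone, the signals were 4692, 4754 and 3799 in TG1, TG2 and TG3, against 7134, 7490 and 7673 in WT1, WT2 and WT3. ILMN_1217728 had signals of 203.7, 209 and 217.9 in TG1, TG2 and TG3, against 361.3, 442.2 and 422.2 in the WT pools. No TG array reached a WT array at either probe. TG3 was the lowest TG pool at both probes on the normalised scale, and at the bright one also in signal. The log2 differences were -0.69 ± 0.10 (adjusted p = 0.00251) and -0.70 ± 0.09 (adjusted p = 0.00195, SE, limma), and both passed in each of 19 alternative settings. Their near equality depended on the processing. The 2 differences were -0.70 and -0.86 without background correction, and -0.74 and -0.94 in the authors' deposited table.

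Jph2, the junctophilin of heart that skeletal muscle also expresses, was lower at 1 of 3 probes. The bright probe ILMN_2438153, also annotated to a cDNA clone, had signals of 1778, 1956 and 2058 in TG1, TG2 and TG3, against 2574, 2471 and 2895 in WT1, WT2 and WT3. The pools did not overlap, although single arrays did. The log2 difference was -0.34 ± 0.09 (SE, adjusted p = 0.0266 by limma). It did not pass without TG1, TG2, WT1, WT2 or WT3 (-0.39 to -0.27), nor on chip 2 alone (-0.27), without background correction (-0.35) or in the authors' deposited table (-0.43), over a range of adjusted p from 0.00935 to 0.204. Probes ILMN_2628876 (mean signal 35.2 in TG and 46.4 in WT) and ILMN_2628875 (29.7 in TG and 43.0 in WT) lay near background and overlapped between genotypes. ILMN_2628875 was detected on 5 TG and 6 WT arrays, so it met the filter through WT alone. The pair gave -0.16 ± 0.10 and -0.20 ± 0.11 (limma adjusted p = 0.251 and 0.206). The size of these differences depended on the processing. Without background correction they were -0.50 and -0.62, and in the authors' deposited table -0.49 and -0.79, and none of these passed.

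Of the calsequestrins, Casq2 rose and Casq1 did not pass. Casq2, the calsequestrin of slow fibres and heart, had signals of 264.6, 269.6 and 423.8 in TG1, TG2 and TG3, against 200, 208.8 and 184.3 in WT1, WT2 and WT3. Every TG array was above every WT array, with TG3 well above the other TG pools. Its log2 difference was 0.60 ± 0.13 (SE, limma adjusted p = 0.0148), or 0.44 without TG3. It did not pass without WT1 (0.58, adjusted p = 0.055) or WT3 (0.58, adjusted p = 0.055) or on chip 2 alone (0.64, adjusted p = 0.0576), in a range of 0.00185 to 0.0576. Casq1, the skeletal muscle calsequestrin, had signals of 1231, 1294 and 1319 in TG1, TG2 and TG3, against 1493, 1927 and 2378 in WT1, WT2 and WT3. The TG pools were close together and all below the WT pools, which were spread widely, with a coefficient of variation of 3.57% in TG and 22.9% in WT. The log2 difference of Casq1 was -0.40 ± 0.15 (adjusted p = 0.0816), with a 95% interval from -0.75 to -0.060. It passed in 4 of 19 alternatives, among them without WT1 (-0.58, adjusted p = 0.0131, in a range of 0.0131 to 0.238), and without WT3 it was -0.25.

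Sln, the short membrane peptide that inhibits the pumps, had 1 tested probe, ILMN_2918875. Its signals were 609.3, 608.3 and 2008 in TG1, TG2 and TG3, against 419.8, 324.2 and 479.8 in WT1, WT2 and WT3. All TG arrays lay above all WT arrays on the normalised scale, and TG3 was far above the other TG pools. The log2 difference was 1.12 ± 0.37 (SE, adjusted p = 0.0567 by limma), 2.17-fold. It passed in 7 of 19 alternatives, among them without TG3 (0.63, adjusted p = 0.00784), without TG1 (1.37) and on chip 1 alone (0.99). The adjusted p by limma ranged up to 0.172. Its lowest value, 0.00547, came from a setting chosen after seeing the data (WT1 from chip 1 only and without TG3). The other Sln probe, ILMN_2662878, was detected on 0 of 12 arrays and was not tested, so no fold is given for it.

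The pumps did not pass at any probe. Atp2a1, the fast-fibre pump SERCA1, had signals of 50580, 52040 and 47040 in TG1, TG2 and TG3, against 41530, 46080 and 47090 in WT1, WT2 and WT3. The genotypes overlapped, and the normalised log2 difference was -0.05 ± 0.07 (SE, adjusted p = 0.607 by limma), with a 95% interval from -0.20 to 0.10. The sign was the opposite in 3 alternatives, none of which passed: 0.16 when arrays were scaled to their 75th percentile, 0.18 in the authors' deposited table and 0.069 by cyclic loess. The probe lies at the 99.9th percentile of tested probes by mean level. Atp2a2, the pump SERCA2 of slow fibres and heart, had signals at its brightest probe (ILMN_1245425) of 8372, 7531 and 7569 in TG1, TG2 and TG3, against 8053, 6101 and 8008 in WT1, WT2 and WT3. WT2 was the low pool and the others overlapped, with a log2 difference of 0.14 ± 0.12 (adjusted p = 0.437, 95% interval -0.14 to 0.42). ILMN_1239742 gave 0.031 ± 0.12 (adjusted p = 0.864). At a dim probe annotated to a cDNA clone, ILMN_2450031, the signals were 120.8, 134.7 and 202 in TG1, TG2 and TG3, against 111.8, 93.5 and 118 in the WT pools. The TG pools lay above the WT pools without overlap, with a difference of 0.35 ± 0.12 on the log2 scale (adjusted p = 0.0624, passing in 4 of 19 alternatives over a range of 0.0213 to 0.193). The fourth probe, ILMN_1242459, was detected on 0 of 12 arrays.

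Pvalb, the cytosolic calcium buffer of fast fibres, had signals of 54680, 53170 and 51140 in TG1, TG2 and TG3, against 36170, 39680 and 43230 in WT1, WT2 and WT3. No TG array overlapped a WT array. Deposited mean signals were 53000 ± 1776 in TG and 39700 ± 3531 in WT (SD, n = 3 pools each), a ratio of 1.33. After quantile normalisation the log2 difference was 0.24 ± 0.07 (SE, adjusted p = 0.0429 by limma), 1.18-fold, and it was 0.44 in the authors' deposited table (adjusted p = 0.0812). It did not pass without any 1 of the 6 pools (0.20 to 0.27), or on chip 1 (0.24) or chip 2 alone (0.23), over a range of adjusted p from 0.00982 to 0.149. The probe lies at the 99.8th percentile of tested probes.

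**Figure D2:**
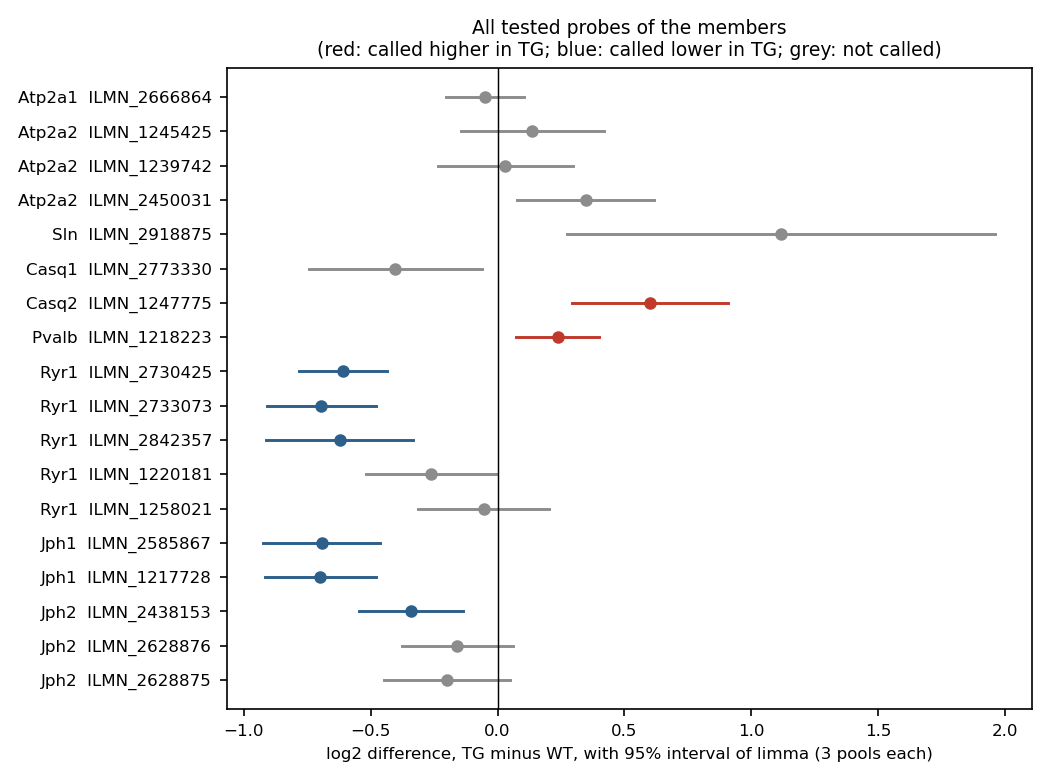
Log2 difference (TG minus WT) with its 95% interval from limma for the 18 tested probes of the members, in rows by gene. The intervals of the 6 probes called lower (3 of Ryr1, 2 of Jph1, 1 of Jph2) and of the 2 called higher (Casq2, Pvalb) do not include 0, nor do those of 4 probes that did not pass after adjustment (Sln, Casq1, ILMN_2450031 of Atp2a2 and ILMN_1220181 of Ryr1).

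The 2 chips gave the same sign at the 8 called probes and at Sln and Casq1. The differences of ILMN_2585867 of Jph1 were -0.55 on chip 1 and -0.83 on chip 2, and those of ILMN_1217728 were -0.70 on both. For Casq2 they were 0.56 on chip 1 and 0.64 on chip 2. A test of the genotype effect between chips (limma on the differences between the 2 arrays of a pool) called 0 of 15708 probes, 893 of which had an unadjusted p under 0.05, and the smallest adjusted p of the members was 0.843.

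**Figure D3:**
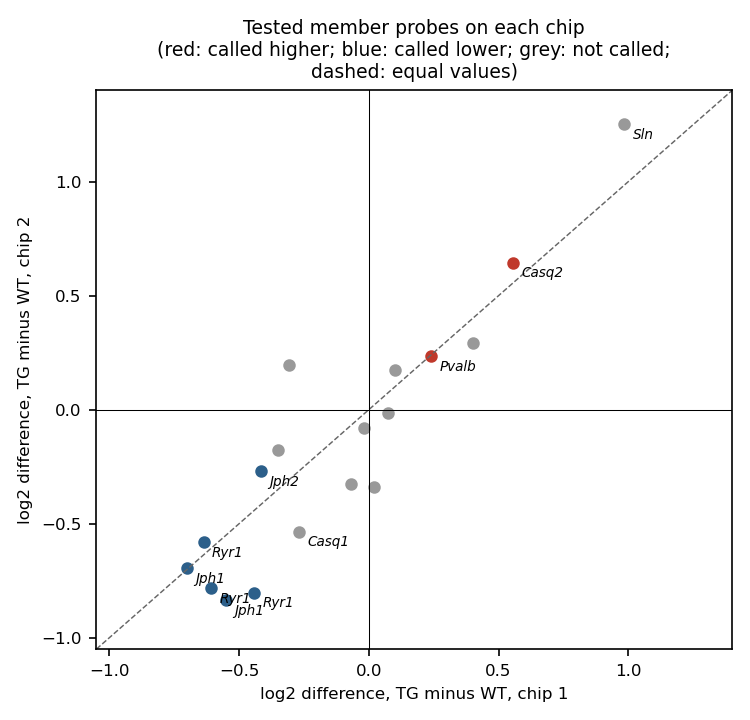
Log2 difference (TG minus WT) of each tested member probe on chip 1 (horizontal) and chip 2 (vertical), with the line of equal values. The called probes lie in the same quadrant on both chips. The probes that change sign were not called. They are ILMN_1258021 of Ryr1 (-0.31 on chip 1 and 0.20 on chip 2), ILMN_2628876 of Jph2 (0.021 and -0.34) and ILMN_1239742 of Atp2a2 (0.075 and -0.013).

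Whether paralogs changed unequally was tested on the log2 ratio of their brightest probes within each pool, which compares changes and not levels. Casq2 over Casq1, centred on its mean over the 6 pools, was 0.38, 0.31 and 0.81 in TG1, TG2 and TG3, against -0.19, -0.47 and -0.84 in WT1, WT2 and WT3. The ratio was higher in every TG pool, by 1.00 ± 0.24 (SE, exact two-sided permutation p = 0.1, the smallest possible with 3 against 3 pools, 0.15 after adjustment over 3 pairs). Jph2 over Jph1 was also higher in every TG pool, by 0.35 ± 0.15 (exact permutation p = 0.1, adjusted 0.15), with a smaller value on chip 1 (0.14) than on chip 2 (0.56). Atp2a2 over Atp2a1 overlapped between genotypes, with a difference of 0.19 ± 0.17 (exact permutation p = 0.4, adjusted 0.4). No pair could pass 0.05 in this design.

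**Figure D4:**
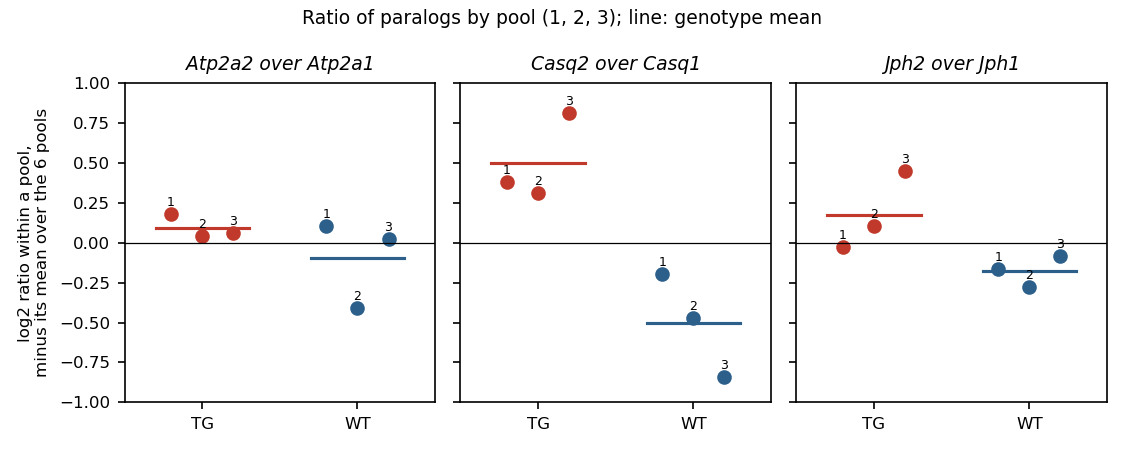
Log2 ratio of 2 paralogs within each pool, minus its mean over the 6 pools, for TG and WT pools (numbers 1 to 3), with genotype means as lines. Casq2 over Casq1 and Jph2 over Jph1 lie higher in all TG pools than in all WT pools, and Atp2a2 over Atp2a1 overlaps.

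Other genes of muscle calcium handling were counted in 6 lists with 69 genes, of which 46 were tested with 1 probe each. In TG, 7 were higher, 7 lower and 32 did not pass, or 30.4% called against 28.0% of all genes. Of all genes 12.1% were higher and 15.9% lower. By list, calls made up 44.4% (T-tubule), 41.7% (lumen and release complex), 33.3% (cytosol), 25% (SERCA regulators), 22.2% (plasma membrane) and 0% (mitochondria). The lists are short, and differences between them were not tested. The median log2 difference was 0.083, against -0.016 over all tested genes. The genes named below are those with the smallest p-values in each list, up to 4 per list.

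Of 9 tested genes of the T-tubule and voltage sensor, 4 fell, 0 rose and 5 did not pass. Cacng1, the gamma subunit of the muscle calcium channel, had signals of 2650, 2631 and 2794 in TG1, TG2 and TG3, against 6370, 6753 and 6618 in WT1, WT2 and WT3. The genotypes were far apart relative to the spread of pools, and the log2 difference was -1.19 ± 0.07 (SE, adjusted p = 2.98e-05 by limma). Cacna2d1, the alpha-2-delta subunit (-0.65 ± 0.14, adjusted p = 0.0134), and Stac3, an adaptor that couples the voltage sensor to Ryr1 (-0.44 ± 0.08, adjusted p = 0.00756), also fell. Cacna2d1 rested on 1 of 3 probes and did not pass on chip 1 alone (-0.37) or without WT1 (-0.63) or WT2 (-0.64). Stac3 did not pass on chip 2 alone (-0.43). The other called gene of this list, Clcn1 (-0.34 ± 0.09, adjusted p = 0.0295), encodes the muscle chloride channel and had mean signals of 44.6 in TG and 73.8 in WT. It did not pass without TG2, WT1, WT2 or WT3 (-0.37 to -0.27) or on chip 2 alone (-0.34). Without background correction it was -0.78. The median log2 difference of the 9 genes was -0.11.

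In the list of the reticulum lumen and release complex, 2 of 12 tested genes rose, 3 fell and 7 did not pass. Camk2b, a subunit of the calcium- and calmodulin-dependent kinase CaMKII, had signals of 1727, 1797 and 1559 in TG1, TG2 and TG3, against 3361, 3530 and 3220 in the WT pools. The pools were well separated, with a log2 difference of -0.85 ± 0.08 (adjusted p = 0.000431). Camk2a, another CaMKII subunit, fell (-0.65 ± 0.11, adjusted p = 0.00497), with both of its tested probes called. Asph, whose gene also encodes junctin of the release complex, fell at 1 of 2 tested probes (-0.50 ± 0.08, adjusted p = 0.00373), though not on chip 2 alone (-0.33). Which of its products the probes read is not known here. Fkbp1a, which encodes the Ryr1-binding protein FKBP12, rose (0.35 ± 0.07, adjusted p = 0.0115), but did not pass without WT2 (0.30), in the authors' deposited table (0.29) or on either chip alone (0.28 and 0.42). The fifth call, seen after the values were known, was Camk2g (0.23 ± 0.07, adjusted p = 0.0435), at 1 of 3 probes. Camk2d, a further CaMKII subunit, did not pass at its brightest probe (0.39, limma adjusted p = 0.0686). Of its 4 tested probes, however, 2 were called higher (0.30 and 0.32, adjusted p = 0.026 and 0.0383). Sypl2 did not pass at its brightest probe (0.19) but was called lower at 1 of 3 (-0.51, adjusted p = 0.0317).

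Among 4 tested SERCA regulators and pump relatives 1 rose, 0 fell and 3 did not pass. Atp2a3, the SERCA3 pump of non-muscle cells, had mean signals of 521.2 in TG and 346.5 in WT (log2 0.61 ± 0.11, adjusted p = 0.00666), with both tested probes called. Tmem38a, the TRIC-A channel of the reticulum (-0.29 ± 0.09, adjusted p = 0.0504, passing in 7 of 19 alternatives), its relative Tmem38b (0.28 ± 0.11, adjusted p = 0.109 at its brightest probe, though 0.30 and adjusted p = 0.0468 at the other) and the calcium-binding protein S100a1 (0.073 ± 0.08, adjusted p = 0.551) did not pass. Pln, phospholamban, was detected on 1 of 6 TG arrays and 0 of 6 WT arrays and was not tested.

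At the plasma membrane 2 of 9 tested genes rose, 0 fell and 7 did not pass. Orai1, the pore of store-operated calcium entry, had signals of 1782, 1822 and 2507 in TG1, TG2 and TG3, against 1219, 1287 and 1574 in WT1, WT2 and WT3. TG pools were all above WT pools, with TG3 the highest, and the log2 difference was 0.67 ± 0.14 (adjusted p = 0.0133), which did not pass without WT1 (0.58) or WT2 (0.65). Slc8a1, a sodium-calcium exchanger, had signals of 404.7, 432.4 and 434 in TG1, TG2 and TG3, against 308.8, 251.9 and 246.5 in the WT pools (0.63 ± 0.08, adjusted p = 0.00108). Orai3 (-0.19 ± 0.07, adjusted p = 0.0735) and the calcium pump Atp2b1 (-0.18 ± 0.07, adjusted p = 0.104) did not pass.

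In the cytosol 2 of 6 tested calcium-binding genes rose, 0 fell and 4 did not pass. Calm2, one of the genes for calmodulin, had signals of 1977, 1746 and 2173 in TG1, TG2 and TG3, against 874.3, 1045 and 1132 in WT1, WT2 and WT3. It was higher at all 3 of its probes, by 1.06 ± 0.10 on the log2 scale at the brightest (adjusted p = 0.000418). Sri, sorcin, which binds calcium and the ryanodine receptor, rose at 1 of 3 probes (0.38 ± 0.10, adjusted p = 0.0316), and in 10 of 19 alternatives it did not pass, among them without TG2, WT1, WT2 or WT3 (0.33 to 0.43). The troponins C of slow fibres, Tnnc1 (0.46 ± 0.15, adjusted p = 0.0561), and of fast fibres, Tnnc2 (0.13 ± 0.07, adjusted p = 0.209), did not pass. Of 6 tested genes of mitochondrial calcium uptake none passed. The nearest were Micu3 (-0.20 ± 0.08, adjusted p = 0.106), Mcu, the uniporter pore (0.16 ± 0.08, adjusted p = 0.164), Slc8b1 (0.19 ± 0.10, adjusted p = 0.212) and Smdt1 (0.12 ± 0.09, adjusted p = 0.382). Micu3 alone had an unadjusted limma p under 0.05 (0.0386), and it passed in the authors' deposited table (-0.76, adjusted p = 0.0497). Its mean signals were near background, 21.55 in TG and 35.4 in WT, and it met the filter through WT alone (4 TG and 6 WT arrays). Mcu was also dim (38.7 in TG and 27.5 in WT), and gave 0.52 without background correction, where it did not pass.

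**Figure D5:**
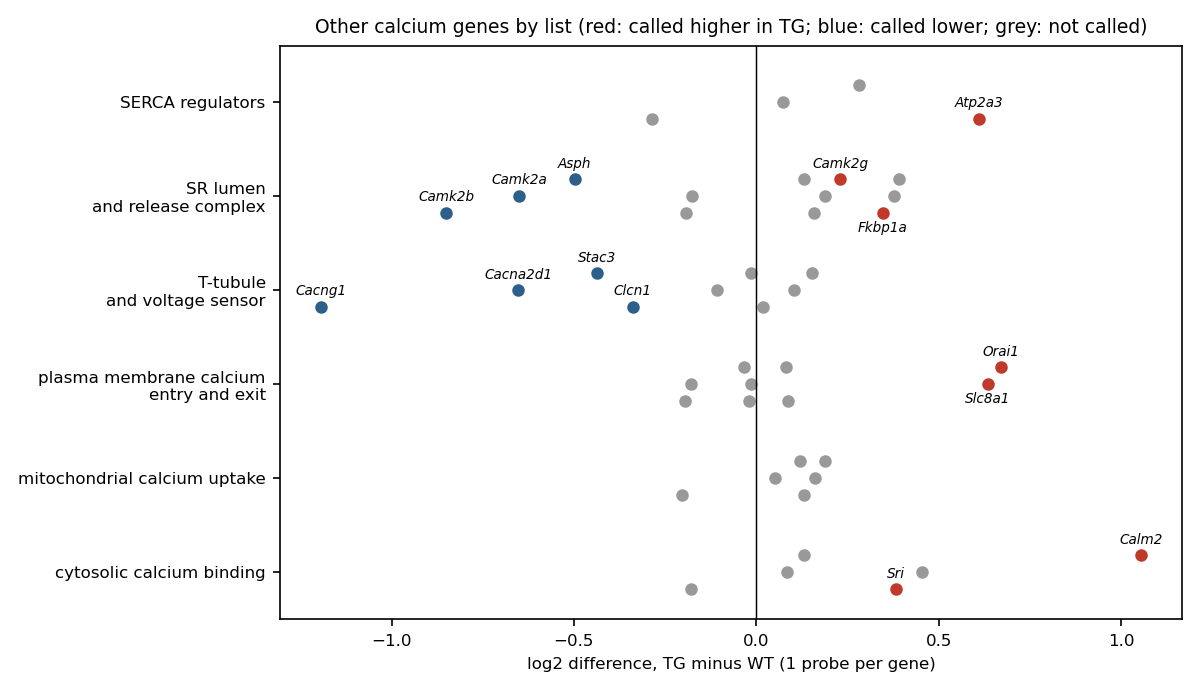
Log2 difference (TG minus WT) of the 46 tested genes of 6 calcium lists, 1 point per gene, with called genes named. The 4 calls of the T-tubule list (44.4% of its genes) are lower in TG. The 2 of the plasma membrane list (22.2%) and the 2 of the cytosolic list (33.3%) are higher. Of all genes 28.0% were called, 12.1% higher and 15.9% lower. Differences between lists were not tested.

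Markers of fibre type and of other cells were measured beside these genes. Of all tested genes 28.0% were called, 12.1% higher and 15.9% lower. Calls made up 28.6% of the slow-fibre and 28.6% of the fast-fibre genes, near that share. They made up 50% of the immature-fibre, 33.3% of the endothelial and 0% of the smooth muscle genes, in lists of few genes. Of 7 slow-fibre genes 2 rose in TG, Tnni1 (0.93 ± 0.15, adjusted p = 0.00455) and Tpm3 (0.45 ± 0.12, adjusted p = 0.0293, not passing in 7 of 19 alternatives), 0 fell and 5 did not pass. Among those that did not pass, the slow myosin light chain gene Myl3 had a difference of -0.52 ± 0.16 (adjusted p = 0.0514), with TG pools below WT pools on the normalised scale. The summed deposited signal overlapped between genotypes, 73910 to 96640 in TG pools and 66750 to 83100 in WT pools. TG3, with the highest Sln and Casq2, had the lowest slow-fibre sum of the TG pools, a sum that the brightest probes dominate. Of the 7 genes only Tnni1 had its highest TG signal in TG3 (539.3, 398 and 550.9 in TG1, TG2 and TG3). Of 7 fast-fibre genes the myosin gene Myh1 rose (0.36 ± 0.07, adjusted p = 0.0101), Myh4 fell (-0.22 ± 0.06, adjusted p = 0.0359) and 5 did not pass. Deposited signals of the 7 summed to 275100 to 288200 in TG pools and 245000 to 269100 in WT pools, whereas their median normalised log2 difference was -0.041, so the direction of this list depends on the scale. All 7 were detected on all 12 arrays, and so were the slow-fibre genes except Myh7, seen on 6 TG and 5 WT arrays. Of 4 tested genes of immature fibres 2 rose, 0 fell and 2 did not pass. Those that rose were the perinatal myosin gene Myh8 (5.80 ± 0.50, adjusted p = 0.000251) and Chrng, the fetal acetylcholine receptor subunit (1.80 ± 0.56, adjusted p = 0.0486). Chrng was 1.02 without TG3, where it passed, and 1.93 without WT1, 1.70 without WT2 and 1.76 without WT3, where it did not pass. It was 3.36 without background correction. Chrng was detected on 6 TG and 4 WT arrays, so it met the filter through TG alone. Its WT signals were near background (50.5, 12.25 and 19.7 in WT1, WT2 and WT3), so the size of its rise is uncertain. The immature-fibre sum was 4565, 6464 and 24460 in TG1, TG2 and TG3, against 317.8, 268.2 and 291.4 in WT1, WT2 and WT3, so TG3 was the highest here as well. The sum of 3 macrophage genes, of which limma called 0 (1 at an unadjusted p under 0.05), was 1032, 1108 and 5220 in TG1, TG2 and TG3, against 2127, 551.9 and 549.9 in the WT pools. Of the heart markers, Nppa and Mybpc3 were detected on 0 of 12 arrays, and the 1 tested gene, Myh6, rose (0.38 ± 0.12, adjusted p = 0.0459). Sums of smooth muscle markers were 3630 to 5945 in TG pools, against 3368 to 3834 in WT pools, with 0 of 3 called, and those of endothelial markers 997.8 to 1130 in TG, against 778.1 to 911.4 in WT, with 1 of 3 called. In TG1 and TG2, Sln, Casq2 and Orai1 were each higher than in every WT pool, and so was the immature-fibre sum. The part of these cells in the values of the 3 genes, in TG3 or the other pools, was not tested.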

How the data were processed

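RNA of 6 pools was measured on 12 one-colour Illumina mouse arrays. The deposited intensity values are linear probe signals; they hold values below 0 and have the same mean on every array, and the sources used here name no software for them. The detection column holds 1 minus a detection p-value, as the deposited values show: it rose with signal on every array. The authors' deposited table holds log2 values, which a rebuild from the signals matched within 0.00109. These log2 values are centred per probe over arrays.

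Signals were corrected with normexp (offset 50), quantile normalised and put on the log2 scale, and the arrays of a pool were averaged. Probes with a detection p under 0.05 on all 6 arrays of a genotype were kept (15708 of 45281). TG was compared with WT by limma 3.58.1 in R 4.3.3, p-values adjusted by Benjamini-Hochberg across the 15708 probes and 0.05 as threshold. In simulated data of this comparison, with 15708 probes, 67 were changed 1.5-fold, 67 were changed 2-fold and 66 were changed 4-fold. Of these, 67.2%, 97.0% and 98.5% were recovered, with 8 false calls. The data had 4059 called probes, far more than the simulation changed, so these shares do not carry over to the data. The p-values measure the spread between pools of 2 mice, and the number of pools limits the precision. Pool numbers were not used as pairs.

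Gene symbols came from the platform annotation, which lists 34885 probes with 1 gene, 18 with several and leaves 10378 unnamed. Lists use the brightest kept probe of a gene. All members are named with every probe, and up to 4 genes with the smallest p-values of each calcium list; marker genes are named where they bear on a member. The members and lists were chosen with earlier results of these data known. No correlation across pools is given, since pools fall into separate genotype clusters. The 19 alternatives covered background correction, scaling, the filter, the chips, the model and each pool left out. They include 1 setting chosen after seeing the data, WT1 from chip 1 only without TG3. The fit with pool as a random block used all 12 arrays, with a correlation of 0.138 between arrays of a pool. It thus treats these arrays as nearly independent, and it gave the lowest limma adjusted p of Casq2 and Pvalb (0.00185 and 0.00982).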

Additional observations from a re-analysis of the deposited data

How the results depend on the processing

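Of 15708 tested probes, 4059 were called, between 2060 and 4216 with 1 pool left out (2586 without WT1, 2060 without WT2, 2581 without WT3) and 1454 on chip 2 alone. Scaling to the 75th percentile gave 1453 higher and 2884 lower, and cyclic loess 2084 higher and 1992 lower, against 1771 and 2288. The 8 member calls became 4 in the authors' deposited table, 5 on chip 2 alone and 5 to 8 with 1 pool left out (5 without WT3), 10 by 75th percentile scaling, 10 with pool as a random block and 11 with WT1 from chip 1 only. The 14 calls among other calcium genes became 8 on chip 2 alone and 8 to 15 with 1 pool left out (8 without WT2), and 18 with WT1 from chip 1 only. Both Jph1 probes and ILMN_2733073 of Ryr1 passed in all 19 alternatives. Fits with the pool number as a block called 3103 probes and 9 of the members' probes, with Sln passing (adjusted p = 0.0236) and Pvalb not (adjusted p = 0.0897). Same-numbered pools deviated with correlations of -0.417, 0.342 and -0.119, and pools of unlike number with -0.442 to 0.431. This check showed no pairing by number, but with so few pools it cannot exclude one. Directions turned only where no call was made: Atp2a1 (0.16 by 75th percentile scaling, 0.069 by cyclic loess, 0.18 in the authors' deposited table), ILMN_1239742 of Atp2a2 (-0.0035 by 75th percentile scaling, -0.013 on chip 2, -0.035 with WT1 from chip 1 only, -0.090 to 0.12 with 1 pool left out), ILMN_1245425 of Atp2a2 (-0.0029 to 0.21 with 1 pool left out), ILMN_1258021 of Ryr1 (0.20 on chip 2, -0.16 to 0.042 with 1 pool left out), ILMN_2628876 of Jph2 (0.021 on chip 1) and Smdt1 (-0.014 on chip 1). Atp2a2 over Atp2a1 turned to -0.048 by 75th percentile scaling and -0.047 in the authors' deposited table (0.028 to 0.29 with 1 pool left out). Jph2 over Jph1 was 0.14 on chip 1 and 0.56 on chip 2 (0.21 to 0.45 with 1 pool left out), and Casq2 over Casq1 0.83 to 1.16. One setting was chosen after seeing the data, WT1 from chip 1 only without TG3, and called 4489 probes, 9 of the members' and 17 other calcium genes. The causes were not tested. Probes near background limit what can be said of Jph2 and Ryr1 at their dim probes.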

Other observations

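Ryr3, the third ryanodine receptor, did not meet the filter on dim probes, having been detected on 4 of 6 TG arrays and 0 of 6 WT arrays. Its signals were 20.2, 11.5 and 55.8 in TG1, TG2 and TG3, against -3.45, 5.7 and 5.55 in WT1, WT2 and WT3, and TG3 was the highest. Slc8a3, a sodium-calcium exchanger of skeletal muscle, was detected on 2 TG and 5 WT arrays, with signals of 14.4, 12.2 and 15.5 in TG1, TG2 and TG3, against 17.6, 32.9 and 34.7 in the WT pools. Neither was tested.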
